A study of Mus musculus with 12 samples.

Results

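The microRNAs of the retina were set against those of the sclera in the same myopic mouse eyes. MicroRNAs (miRNAs) were measured on 12 one-colour arrays, and the 6 arrays described here carried the 3 pools of myopic retina and the 3 pools of myopic sclera. All mice were of the strain C57BL/6J. A frosted plastic diffuser had been stitched over the right eye at postnatal day 24, and the tissue was taken at postnatal day 34, after 10 days of visual form deprivation, a treatment that blurs the image and makes the growing eye myopic. The other 6 arrays carried whole retina and whole sclera of control left eyes of the same age that wore no diffuser, 3 pools of each, and the labels give them the same mouse identifiers as the myopic eyes. Each pool held the tissue of 3 eyes with the lens removed, according to the extraction protocol, although the labels name 1 mouse for each array. Retina and sclera pools of the same number carry the same mouse identifier. Of 696 mouse miRNA names on the array, the 439 detected on at least 1 of the 6 arrays of myopic eyes were compared. Of these, 267 were detected on all 6.

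A miRNA is a short RNA cut from one arm of a hairpin precursor, the 5p or the 3p arm. It guides a silencing complex to messenger RNAs, and the bases just behind its 5′ end, the seed, do most of the pairing. The retina is a sheet of photoreceptors, interneurons and glia and expresses neuronal and sensory miRNAs. The sclera is the collagen-rich outer wall of the eye, made by fibroblasts, and it borders on the conjunctiva, the extraocular muscles and the choroid.

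The sequences below are those of miRNAs on which the comparison turned, with the seed (bases 2 to 8) in capitals. All come from RefSeq (build GRCm38.p6), in which 325 of the 439 names had an entry. The miRNAs of the sensory cluster, which lie together on chromosome 6, have 3 different seeds. They were far higher in the retina.
miR-183-5p: uAUGGCACugguagaauucacu
miR-96-5p: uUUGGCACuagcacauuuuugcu
miR-182-5p: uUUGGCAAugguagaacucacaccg

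miR-183-5p lies at chr6:30169711-30169732, miR-96-5p at chr6:30169506-30169528 and miR-182-5p at chr6:30165962-30165986, all on the minus strand and outside protein-coding genes. The next set holds miRNAs of neurons and of the inner retina, followed by the pair miR-204-5p and miR-211-5p of pigment cells, which share a seed.
miR-9-5p: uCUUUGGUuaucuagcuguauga
miR-129-2-3p: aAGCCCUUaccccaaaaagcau
miR-132-3p: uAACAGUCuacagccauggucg
miR-181a-5p: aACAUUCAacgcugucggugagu
miR-204-5p: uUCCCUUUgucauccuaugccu
miR-211-5p: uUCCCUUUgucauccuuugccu

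miR-204-5p lies inside Trpm3 (chr19:22750610-22750631, plus strand) and miR-211-5p inside Trpm1 (chr7:64205831-64205852, plus strand). On the scleral side stood both arms of the miR-199a hairpin and the neighbouring miR-214-3p, shown with its opposite arm because the arms behaved differently. miR-214 lies inside both Dnm3 and the non-coding gene Dnm3os, with miR-214-3p at chr1:162223438-162223459 on the plus strand. One miR-199a copy also lies inside these genes and the other inside Dnm2. Genes were matched by position, without regard to strand.
miR-199a-5p: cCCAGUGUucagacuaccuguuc
miR-199a-3p: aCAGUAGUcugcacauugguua
miR-214-3p: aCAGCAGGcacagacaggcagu
miR-214-5p: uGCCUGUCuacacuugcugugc
miR-223-3p: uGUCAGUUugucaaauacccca

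The miR-200 family of epithelia falls into a pair of seed groups. Its 3p arms were detected mainly in the sclera and the 5p arms of miR-200a and miR-141 only in the retina, so both arms are printed. miR-200a-3p lies at chr4:156054911-156054932 and miR-141-3p at chr6:124717917-124717938, both on the minus strand.
miR-200b-3p: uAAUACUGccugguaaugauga
miR-200a-3p: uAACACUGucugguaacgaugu
miR-200a-5p: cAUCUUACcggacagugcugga
miR-141-3p: uAACACUGucugguaaagaugg
miR-141-5p: cAUCUUCCagugcaguguugga
miR-205-5p: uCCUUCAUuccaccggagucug

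The last set shows a seed whose holders went different ways, and a miRNA that did not differ between the tissues by more than 2-fold. miR-322-5p is encoded on the X chromosome (chrX:53054306-53054327, minus strand) and miR-15a-5p on chromosome 14 (chr14:61632075-61632096, minus strand).
miR-15a-5p: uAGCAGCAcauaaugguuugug
miR-16-5p: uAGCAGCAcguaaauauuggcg
miR-322-5p: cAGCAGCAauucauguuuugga
miR-26a-5p: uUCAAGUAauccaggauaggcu

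The retina arrays were brighter than the sclera arrays and detected more miRNAs. Between 376 and 401 miRNAs were detected in the myopic retina pools and between 290 and 317 in the myopic sclera pools, and the total gene signal summed over all miRNAs ran from 591608 to 832784 in the retina and from 236094 to 321794 in the sclera. Because of this, the choice of scaling set where zero lay. A value below, unless called a signal, is the log2 of the total gene signal after quantile normalization, which gives all arrays the same distribution, and a difference is retina minus sclera. Over the 267 miRNAs seen on all 6 arrays, the median difference was -0.30 after quantile normalization and 0.46 after scaling to the 75th percentile, so differences can be read against these shifts. The slide and the pool number coincided. Each of the 4 groups held the same position on every slide, so position and group cannot be told apart.

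Most miRNAs differed between the tissues. Of the 439 miRNAs tested, 261 (59.5%) passed an adjusted p of 0.05 and a fold change of 2, in limma's moderated test with Benjamini-Hochberg adjustment, and these are the calls referred to below. Of these calls, 144 (32.8% of those tested) were higher in the retina and 117 (26.7%) were higher in the sclera. With 75th percentile scaling the split was 196 higher in the retina against 82 higher in the sclera. All 144 retinal calls and 82 of the scleral calls were also made with that scaling, in the same direction, and 35 scleral calls were not. Among the 267 miRNAs detected on all 6 arrays, 142 (53.2%) were called, 46 (17.2%) of them with the retina above the sclera and 96 (36.0%) with the sclera above the retina. The direction was the same in all 3 same-numbered pairs of pools for 254 of the 261 calls. The calls were selected on these same arrays, so this agreement is no separate support for them. The SD of these differences over the 267 miRNAs was 2.28 on the log2 scale, against a median SD between pools of 0.14 in the retina and 0.11 in the sclera.

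**Figure D1:**
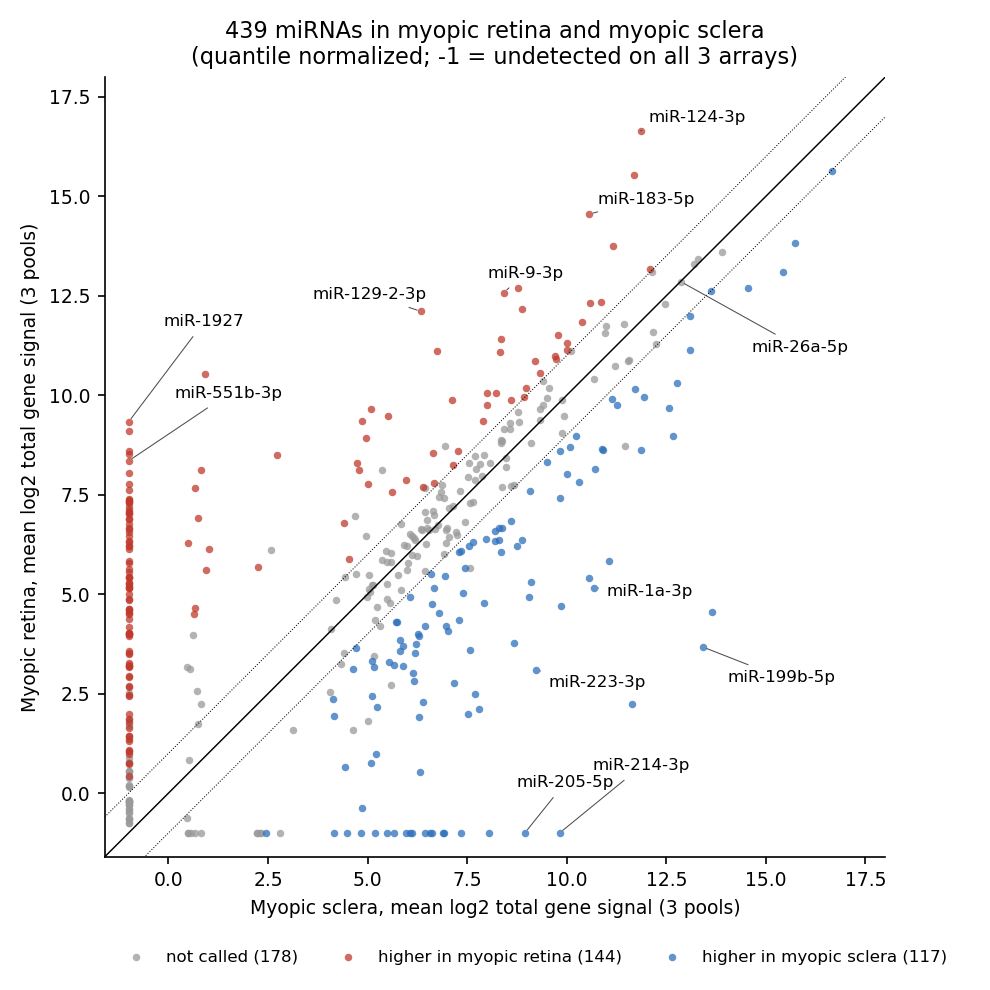
Mean log2 total gene signal (quantile normalized) of each of the 439 miRNAs in 3 pools of myopic sclera (x axis) and 3 pools of myopic retina (y axis). The solid line marks equal values and the dotted lines a 2-fold difference, and points at -1 were undetected on all 3 arrays of a tissue; the 144 retinal and 117 scleral calls lie on both sides of the diagonal and along both edges.

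Detection differed as well as level. There were 120 miRNAs detected in the retina alone and 29 in the sclera alone. Of the former, 85 were found on all 3 retina arrays and on no sclera array, and 81 of these 85 were called. Of the latter, 18 were found on all 3 sclera arrays and on no retina array. The same pattern held in control eyes for 46 of the 85 and for 9 of the 18. Of all calls, 87 retinal and 19 scleral ones were of miRNAs detected on no array of the other tissue. For miRNAs undetected in a tissue the difference depends on the value given to an undetected spot, so a lower bound of the fold change is given instead. It was computed after 75th percentile scaling against the lowest detected signal of each array. Where the brightest probe of the miRNA on that array was higher, that signal was used. The bound reached 10-fold for 43 of the 81 called retinal miRNAs and for 14 of the 18 scleral ones. Every retina array lay above every sclera array for 193 miRNAs (44.0%), and the reverse held for 155 (35.3%). These counts take in the 85 and the 18 above, which separate by detection alone.

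The sensory cluster, which is known from photoreceptors, hair cells and other sensory cells, was higher in the retina for all 4 of its measured members, with a median difference of 3.87 against 0.42 over all 439 miRNAs. All 4 were called, but 3 in a fit that paired the pools by mouse identifier and 3 with normexp background correction. The total gene signal of miR-183-5p was 39776, 49892 and 30578 in retina pools 1, 2 and 3. In the sclera pools it was 1264, 586 and 1196. The lowest retina pool thus stood far above the highest sclera pool, and the log2 difference was 3.99 (SE 0.52, adjusted p = 8.76e-05). miR-96-5p gave signals of 69906 to 107364 in the retina and 1286 to 2544 in the sclera, with a difference of 3.83 (SE 0.73). The difference of miR-182-5p was 3.92 (SE 0.46). miR-183-3p, the opposite arm of the same hairpin, differed by 3.55 but with a large error (SE 1.43, adjusted p = 0.049). An SE takes in the spread of all 4 groups, and miR-183-3p was detected in only 2 control sclera pools. Between the myopic pools its SD was 0.16 in the retina and 0.45 in the sclera.

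The neuronal miRNAs behaved alike, and all 5 that were measured were called higher in the retina. miR-124-3p, the most familiar miRNA of mature neurons, gave 105020, 123780 and 87155 in the retina and 2966, 1298 and 2263 in the sclera. It had the same normalized value on all 3 retina arrays, because quantile normalization assigns a value by rank and it held the same rank on each. Its difference was 4.79 (SE 0.69, adjusted p = 1.84e-04). miR-9, which acts in neural progenitors and in neurons, differed on both arms, by 4.37 (SE 0.32) for miR-9-5p and by 4.16 (SE 0.21) for miR-9-3p. miR-124-5p was undetected in sclera pool 2. A further 4 neuron-enriched miRNAs were all called higher in the retina. miR-138-5p and miR-137-3p were undetected in the sclera, with lower bounds of 34.2-fold and 22.7-fold, whereas miR-128-3p and miR-218-5p were detected there and differed by 2.75 (SE 0.14) and 1.89 (SE 0.31).

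**Figure D2:**
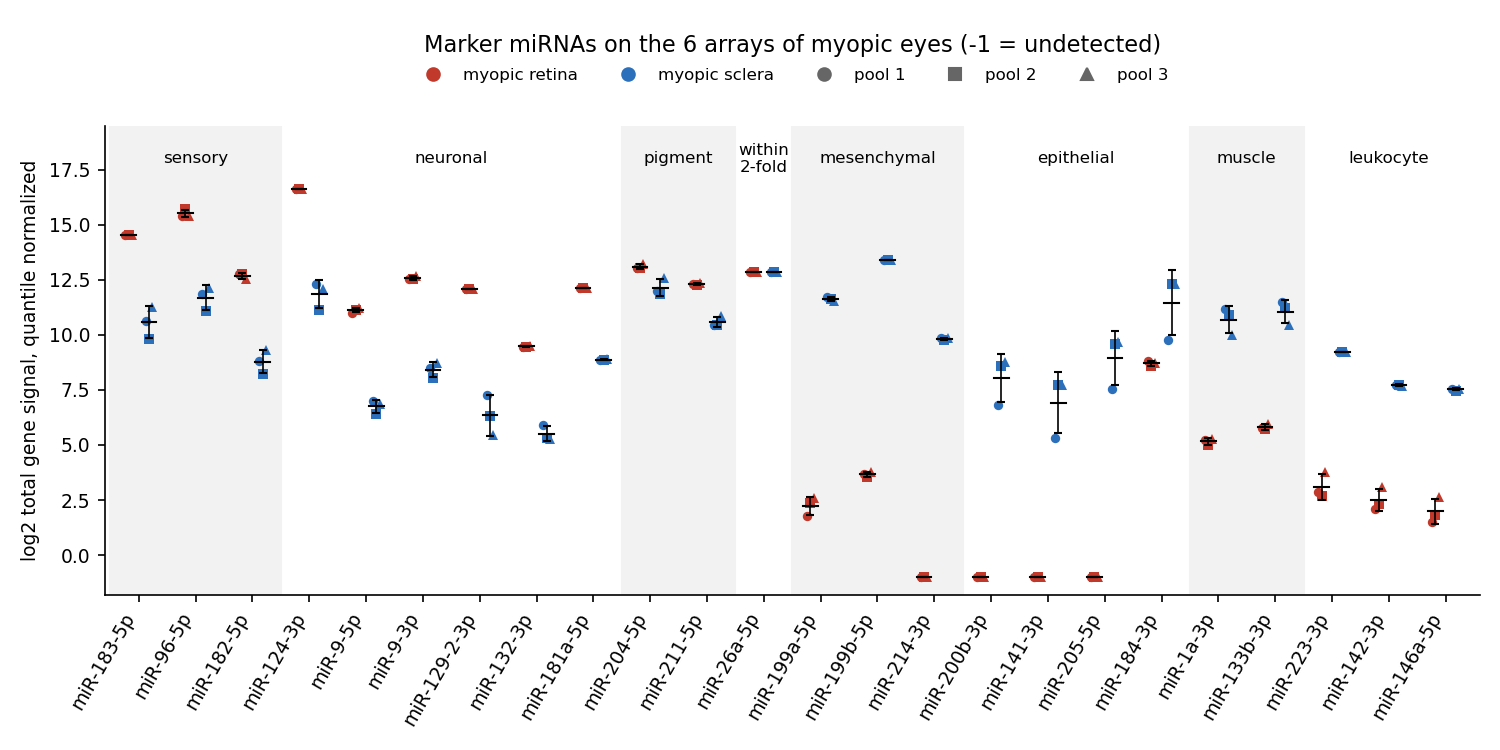
Quantile normalized log2 total gene signal (y axis) of 24 marker miRNAs, grouped by the cells they are known from, in 3 pools of myopic retina (red) and 3 pools of myopic sclera (blue). Symbols mark the pool number, bars the mean and error bars the SD (n = 3 pools). The plotted miRNAs are a selection from the lists. Those of the retinal and mesenchymal groups separate without overlap, while the epithelial ones spread widely between the sclera pools. Left out are list members with the higher signal in the retina, namely miR-214-5p (mesenchymal), miR-499-5p (muscle), and miR-200a-5p and miR-141-5p (epithelial).

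Of the miRNAs detected on all 6 arrays, the one with the largest difference in favour of the retina was miR-129-2-3p, a brain-enriched miRNA. Its signals were 5735, 7464 and 5815 in the retina and 72.7, 31.9 and 14.0 in the sclera. The difference was 5.76 (SE 0.40, adjusted p = 9.21e-07). It was followed by miR-124-3p and by miR-7a-5p, a miRNA of neuroendocrine cells, at 4.56 (SE 1.39, adjusted p = 0.015). miR-598-3p stood at 4.49 (SE 1.45, adjusted p = 0.020). Both of the latter were dimmer in sclera pools 2 and 3 than in pool 1, but their SEs take in the control pools as well. In control sclera pool 3 both were undetected. Between the myopic pools the SDs in retina and sclera were 0.05 and 0.22 for miR-7a-5p and 0.05 and 0.51 for miR-598-3p. miR-132-3p, which neuronal activity induces, had signals of 958, 1244 and 922 in the retina and 27.2, 14.6 and 12.3 in the sclera, and a difference of 3.97 (SE 0.18). Its cluster partner miR-212-3p has the same seed but was not called. Its difference was -0.94 (SE 0.19), short of 2-fold.

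The miR-181 family, known from amacrine and ganglion cells of the inner retina, was higher in the retina for 4 of 5 members. miR-181a-5p gave 6181, 7617 and 6107 in the retina and 292, 239 and 222 in the sclera. Its difference was 3.27 (SE 0.10), and that of miR-181b-5p was 3.06 (SE 0.11). miR-181d-5p, which has the same seed, was at 0.88 (SE 0.12), below the fold threshold. It was the only member not called, and with 75th percentile scaling it was called at 1.77.

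The miRNAs of pigment cells were present in both tissues at levels closer to each other. miR-211-5p was called higher in the retina at 1.72 (SE 0.16), with signals of 6761 to 8642 in the retina and 935 to 1106 in the sclera. For miR-204-5p the difference was 0.95 (SE 0.28, adjusted p = 0.012), under the 2-fold threshold, and with 75th percentile scaling it was called at 1.11. The sclera pools held 47.1% of the scaled retinal signal of miR-204-5p and 31.0% of that of miR-211-5p on average, compared with 4.73% for miR-124-3p. Of the 3 oligodendrocyte miRNAs, miR-338-5p was called higher in the retina at 2.39 (SE 0.45) and miR-219-5p at 1.10. miR-338-3p was at 0.71 and not called. With 75th percentile scaling all 3 were called higher in the retina, and with normexp background correction 0. In these bulk samples, fewer cells of a type and less RNA per cell cannot be told apart.

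The miRNAs named next were detected on every retina array and no sclera array and had the 6 highest bounds. miR-1927 gave signals of 965, 1057 and 707 in the retina, at least 141-fold above the sclera. The bound was 109-fold for miR-3099-3p, which is encoded inside Usp29. miR-190b-5p and miR-468-3p were at least 91.8-fold and 87.4-fold higher. miR-551b-3p had a bound of 65.0-fold and a nearly constant retinal signal (459, 597 and 467), and miR-672-5p a bound of 64.1-fold. None of these 6 was detected in any myopic sclera pool. In the retina of control eyes miR-551b-3p was as even, at 422, 488 and 496, whereas the other 5 spread widely between pools, with miR-1927 at 949, 122 and 53.1.

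The mesenchymal miRNAs showed the widest separation in the opposite direction. miR-199a and miR-199b are expressed in fibroblasts and other mesenchymal cells. The signals of miR-199b-5p were 28.3, 40.1 and 22.5 in the retina and 7378, 6363 and 5384 in the sclera. Its difference was -9.74 (SE 0.71, adjusted p = 1.42e-06), the largest of any miRNA detected on all 6 arrays. miR-199a-5p stood at -9.40 (SE 0.63) and miR-199a-3p at -9.10 (SE 0.58). miR-214-3p, which lies beside the miR-199a copy in Dnm3, was undetected in all 3 retina pools and gave 711, 562 and 480 in the sclera, so that it was at least 356-fold higher there. It was the highest bound among the miRNAs found in the sclera alone. The fifth measured member of the list, miR-214-5p, went the other way in signal, with 221, 305 and 154 in the retina and 10.3, 8.29 and 6.52 in the sclera. Its difference of 2.28 had an SE of 1.48 and was not called (adjusted p = 0.20). That SE takes in the spread of all 4 groups, control pools included. Between the myopic pools alone the SD was 0.09 in the retina and 0.10 in the sclera, and the signals did not overlap.

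Among the other miRNAs with the largest scleral excess, miR-455-3p lies inside Col27a1, a gene for a fibrillar collagen of cartilage. It gave 9.96 to 12.7 in the retina and 85.9 to 118 in the sclera, a difference of -5.69 (SE 0.45), and its opposite arm miR-455-5p was found only in the sclera. miR-542-5p was at -5.78 (SE 0.47). It belongs to a cluster on the X chromosome together with miR-322, miR-351, miR-450 and miR-503, of which 7 of the 8 measured miRNAs were called higher in the sclera with a median of -5.81. miR-503-5p was undetected in the retina and gave 29.2, 27.3 and 19.9 in the sclera, a bound of 15.5-fold. miR-10b-5p, which lies in a Hox gene cluster, was also undetected in the retina and at least 16.3-fold higher in the sclera. The other 5 Hox-cluster miRNAs on the array were undetected on all 6.

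The miR-29 family is known to target messenger RNAs of collagens. Of the 5 members on its list, 3 were called higher in the retina and none in the sclera. miR-29b-1-5p, which the naming rule of the list left out and which is added here with its value known, was called higher in the sclera at -1.76 (0.42 with 75th percentile scaling). miR-29c-3p gave 18062, 24219 and 15796 in the retina and 1513, 1321 and 1169 in the sclera, with a difference of 2.61 (SE 0.24). miR-29b-3p stood at 1.48 (SE 0.30). miR-29a-3p, with the same seed, was at 0.11 (SE 0.16, adjusted p = 0.56), and the 95% interval of its difference lay within 2-fold. miR-21-5p, often studied in fibrosis, was at -0.68 and not called. Its opposite arm miR-21-3p was called higher in the retina, with 53.7, 78.3 and 24.4 there and no detection in the sclera, a bound of 7.34-fold. With normexp background correction miR-21-3p was not called.

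Markers of further cell types were higher in the sclera. Of the skeletal and cardiac muscle miRNAs, 5 of 6 were called higher there, although miR-206-3p, at -1.33, was no longer called with 75th percentile scaling (-0.45). miR-1a-3p gave 70.9, 90.2 and 60.4 in the retina and 1641, 1173 and 586 in the sclera. Its difference was -5.53 (SE 0.59), and that of miR-133b-3p was -5.23 (SE 0.43). The exception was miR-499-5p, a miRNA from a slow myosin gene, which was found only in the retina with signals of 63.4, 92.1 and 61.7.

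Of 7 miRNAs of leukocytes, 4 were called higher in the sclera and none in the retina. miR-223-3p of myeloid cells was at -6.14 (SE 0.43), with 17.9 to 23.3 in the retina and 276 to 354 in the sclera. miR-142-3p, present in all blood cell lineages, was at -5.21 (SE 0.52) and miR-146a-5p, induced in inflammation, at -5.53 (SE 0.36). miR-150-5p of mature lymphocytes was at 0.01 and miR-146b-5p at 0.11, neither of them called, although miR-150-5p was called higher in the retina at 1.30 with 75th percentile scaling. Both endothelial miRNAs were higher in the sclera, with miR-126-3p at -1.55 (SE 0.13), and both smooth muscle miRNAs as well, with miR-143-3p at -4.13 (SE 0.36). The erythroid miRNA miR-451 was present in both tissues and higher in the sclera at -2.00 (SE 0.17).

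The epithelial miRNAs separated the tissues less evenly. In all, 5 of 7 members of the miR-200 family and 2 of 3 miRNAs of surface epithelium were called higher in the sclera. With 75th percentile scaling miR-429-3p was no longer called (-2.84). With normexp background correction the scleral calls were 3 and 1. miR-205-5p, of stratified epithelia, was undetected in the retina and gave 86.0, 474 and 421 in the sclera. It was at least 159-fold higher there on average. The bounds of miR-200b-3p, miR-200a-3p, miR-141-3p and miR-200c-3p were 77.3-fold, 45.8-fold, 27.9-fold and 25.4-fold. miR-184-3p, abundant in corneal and lens epithelium, was at -2.75 with an SE of 1.37 and was not called (adjusted p = 0.099). Its signals were 614, 2494 and 2431 in the sclera and 656, 720 and 546 in the retina. After 75th percentile scaling, sclera pool 1 was at 174% of the retinal signal and pools 2 and 3 at 942% and 1044%.

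**Figure D3:**
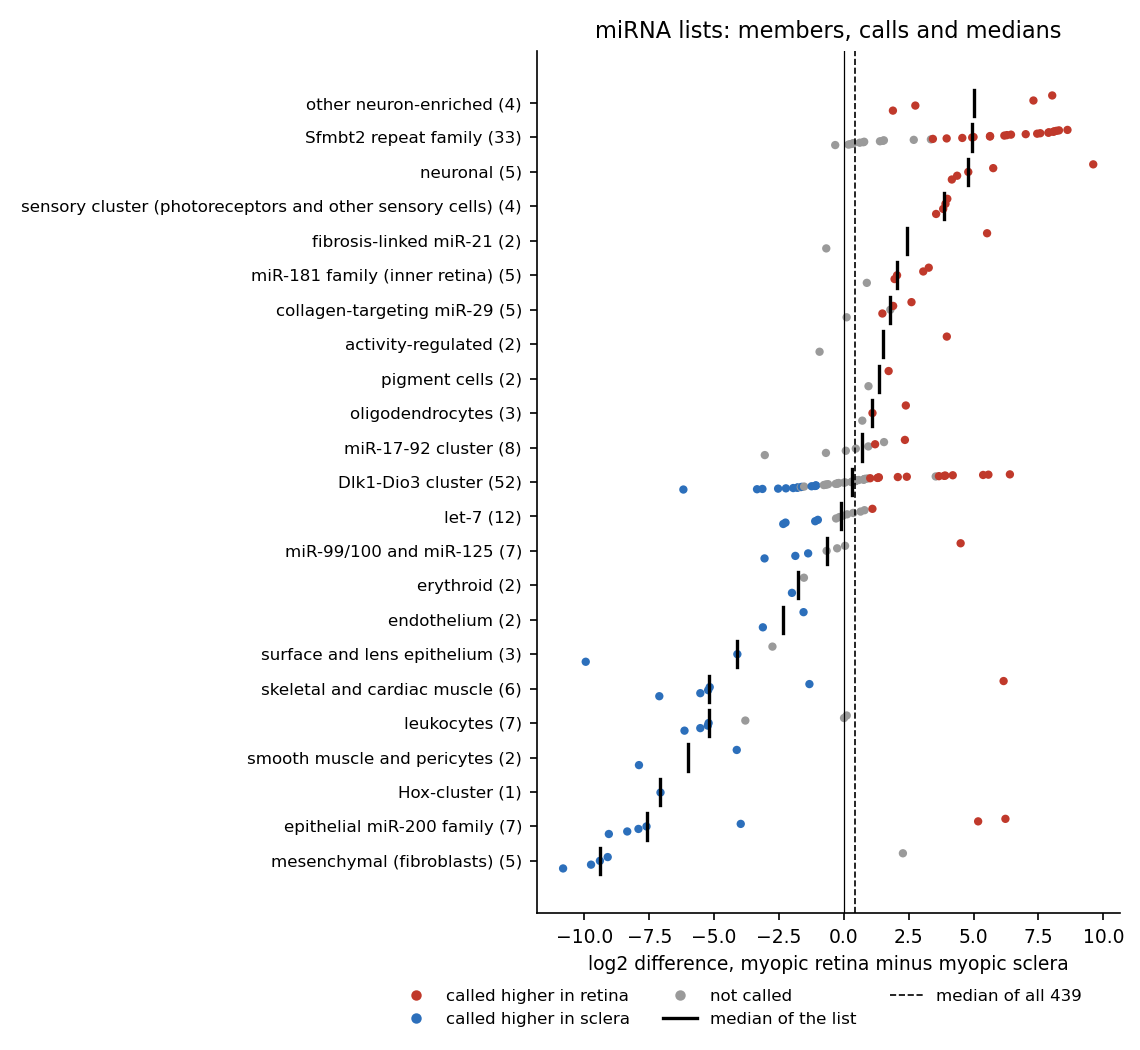
Differences between myopic retina and myopic sclera (x axis, log2) of the tested members of 23 miRNA lists (rows, number of members in parentheses). Each point is 1 miRNA, coloured by call, thick bars are list medians and the dashed line is the median of all 439 miRNAs (0.42); the sensory and neuronal lists lie to the right, the mesenchymal and epithelial lists mostly to the left.

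The sclera pools differed from each other in the same marker miRNAs, and the sensory, epithelial and muscle members each ranked the pools in one order. After 75th percentile scaling, all 8 epithelial miRNAs detected in the 3 sclera pools were lowest in pool 1, where 28.9% of the 287 miRNAs detected in all 3 sclera pools were lowest. The ratio of the highest to the lowest pool ran from 4.74 for miR-200a-3p to 9.76 for miR-200c-3p, against a median of 1.15 over the 287. All 5 muscle miRNAs were highest in pool 1 and lowest in pool 3, with ratios of 1.35 to 2.03. The 4 sensory miRNAs were lowest in pool 2, as were all 3 neuronal miRNAs detected throughout, whereas the neuron-enriched miR-128-3p and miR-218-5p were lowest in pool 3. By contrast, the mesenchymal miRNAs differed by ratios of 1.01 to 1.14 only.

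Sensory miRNAs were present in each sclera pool, at a fraction of the retinal level that differed between the pools. The scaled scleral signal of miR-183-5p was 5.92%, 3.19% and 9.18% of the retinal signal in pools 1, 2 and 3. For miR-96-5p the percentages were 5.52%, 3.25% and 7.75%, and for miR-182-5p 5.55%, 3.35% and 9.42%. Those of miR-124-3p were 5.26%, 2.85% and 6.09%. The part of retinal, epithelial or muscle cells in the scleral samples was not tested. In the control sclera pools the same miRNAs also spread widely, and miR-205-5p ran from 329 to 1217 in scaled signal. Without sclera pool 1, 2 or 3 in turn, 5 members of the miR-200 family and 5 muscle miRNAs were still called higher in the sclera in each fit, and 3 or 4 sensory miRNAs higher in the retina.

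**Figure D4:**
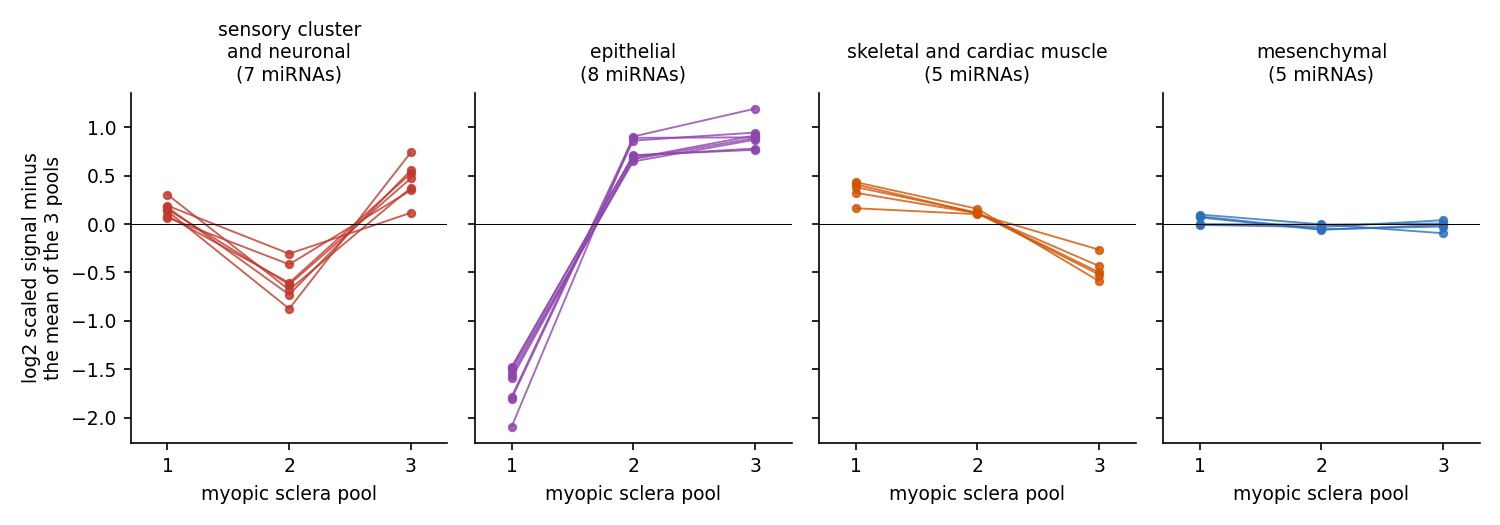
Scaled signal of marker miRNAs in the 3 pools of myopic sclera (x axis), as log2 distance from the mean of the 3 pools (y axis). Each line is 1 miRNA; the 8 epithelial miRNAs were lowest in pool 1, the 5 muscle miRNAs lowest in pool 3, the 7 sensory and neuronal miRNAs lowest in pool 2, and the 5 mesenchymal miRNAs nearly level.

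Large miRNA groups divided in different ways. The miR-297, miR-466, miR-467 and miR-669 family holds many near-identical members, whose probes can share signal. Many of its hairpins lie in the Sfmbt2 gene, by which the family is named here, but RefSeq places others elsewhere, such as miR-669n inside Slc30a7, miR-466i-3p inside Cdk13 and miR-467f inside Fxr2. Of 33 measured members, 26 were detected in the retina alone, so that their difference could point only to the retina. Calls were made for 20 of the 33, all of them higher in the retina, and for 8 with normexp background correction. The median was 4.95 over the 33 and 0.34 over the 5 detected on all 6 arrays, of which 1, miR-669n, was called. miR-466h-5p gave 321, 469 and 227 in the retina, a bound of 50.8-fold. miR-669n gave 741, 1000 and 534 in the retina and 15.0, 6.79 and 12.6 in the sclera, with a difference of 3.96 (SE 0.68). All 25 members detected in the 3 retina pools were highest in pool 2 and lowest in pool 3 after scaling. Over all 372 miRNAs detected there, 45.2% were highest in pool 2 and 47.6% were lowest in pool 3. The ratio between these pools had a median of 1.96 in the family and of 1.15 over the 372.

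In the Dlk1-Dio3 cluster on chromosome 12, the calls fell on both sides. Of 52 listed members, 13 were called for the retina, 13 for the sclera and 26 for neither, with a median of 0.30. Over all miRNAs tested, the calls were 32.8% for the retina and 26.7% for the sclera. These counts rested on the processing. With 75th percentile scaling 24 were higher in the retina and 5 in the sclera, and with normexp background correction 0 and 2. Of the measured miRNAs that lie there but were not on the list, miR-299b-5p was called higher in the sclera at -4.90, and miR-3072-5p, miR-432 and miR-493-3p were not called. miR-323-3p was found only in the retina at 77.2, 102 and 74.0, a bound of 13.1-fold. miR-299-3p was found only in the sclera at 15.6, 13.4 and 9.86, a bound of 7.84-fold. miR-411-5p was detected throughout and higher in the sclera at -3.14 (SE 0.20).

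The let-7 family, abundant in differentiated tissue, stayed near balance. Of its 12 listed members 1 was a retinal call, 4 were scleral calls and 7 were no calls, with a median of -0.11. The 4 scleral calls were absent with 75th percentile scaling. The naming rule of the list left out let-7a-1-3p and let-7c-1-3p, not called at 2.56 and -1.48, and let-7f-1-3p, called higher in the sclera at -2.66 (-1.25 with the other scaling). The scanner signals of let-7c-5p were 11592, 16095 and 10898 in the retina and 10704, 9321 and 8652 in the sclera. Its difference was -2.34 after quantile normalization and -0.78 after scaling. let-7g-5p was the retinal call, at 1.10 (1.31 with the other scaling).

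Members of a seed group did not always move together. Among 30 seed groups with 2 or more measured miRNAs, 14 had 2 or more calls in one direction (8 towards the retina and 6 towards the sclera) and 3 had calls in both. In the group of miR-15a-5p, miR-15b-5p, miR-16-5p and miR-322-5p, the first was higher in the retina at 1.12 (SE 0.17) and the last higher in the sclera at -3.80 (SE 0.28). miR-16-5p was at 0.99 (SE 0.11), just short of 2-fold. Genomic neighbours were grouped too. Among 37 groups of hairpins spaced by at most 10000 bases, 15 had 2 or more calls in one direction and 9 had calls in both.

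The opposite arms of a hairpin derive from the same precursor. Both arms were measured for 75 hairpins. Both were called in the same direction for 20 (9 towards the retina, 11 towards the sclera) and in opposite directions for 5, namely miR-141, miR-200a, miR-431, miR-434 and miR-485. The 5p arm of miR-200a gave 84.5, 114 and 40.4 in the retina and was undetected in the sclera, at least 11.5-fold higher in the retina, whereas its 3p arm gave 31.4, 124 and 108 in the sclera and was undetected in the retina. The 5p arm of miR-141 gave 44.3, 75.5 and 16.2 in the retina and was undetected in the sclera, a bound of 5.93-fold. For miR-434 both arms were detected on all 6 arrays, with 1.02 for the 3p arm and -1.08 for the 5p arm, the latter at 0.03 after 75th percentile scaling. With that scaling miR-431-5p moved from -2.23 to -0.85 and miR-485-5p from -1.08 to 0.61, and neither was called. With it, the calls in opposite directions were thus kept for miR-141 and miR-200a and lost for miR-431, miR-434 and miR-485. With normexp background correction no member of the miR-200 family was called higher in the retina. The opposite calls of miR-141 and miR-200a were therefore lost there. Over the 32 hairpins whose arms were detected on all 6 arrays the correlation of the differences of the arms was 0.88 (Pearson, across hairpins, which share the arrays and are not replicates).

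**Figure D5:**
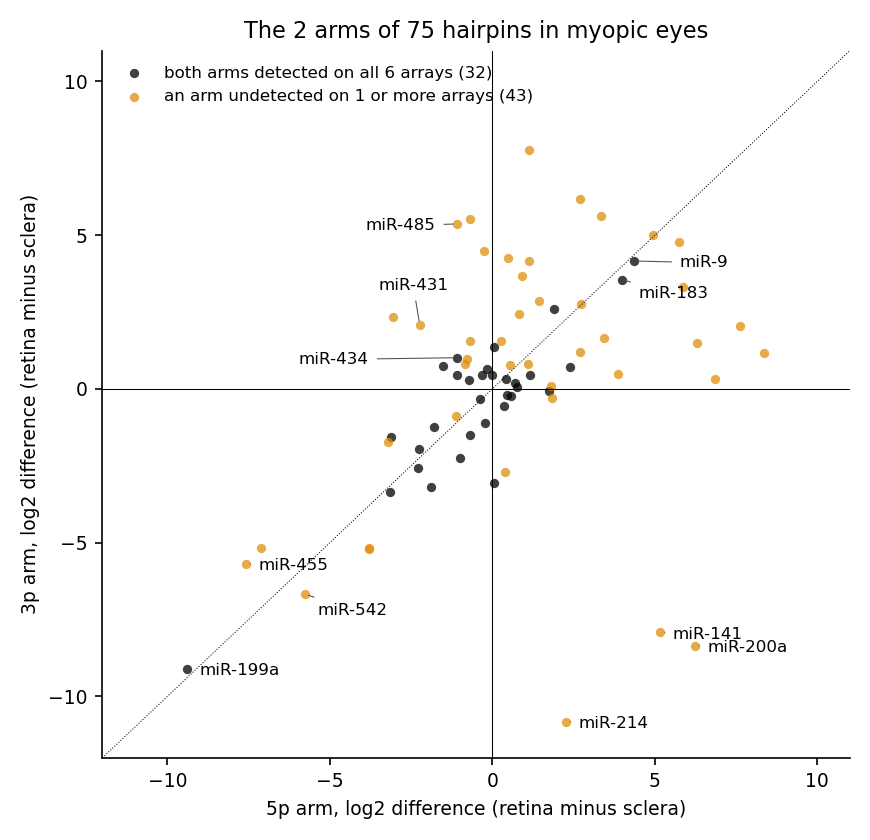
Difference between myopic retina and myopic sclera (log2) of the 5p arm (x axis) and the 3p arm (y axis) of 75 hairpins. Black points are the 32 hairpins with both arms detected on all 6 arrays, orange points the others, and the dotted line marks equal differences; miR-141, miR-200a and miR-214 lie far from it at the lower right.

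Some miRNAs were level between the tissues relative to the rest. Of the 267 miRNAs detected on all 6 arrays, 61 had a 95% interval of the difference within 2-fold. miR-26a-5p held the same rank on all 6 arrays of myopic eyes, with a difference of 0.00 (interval -0.20 to 0.20) and 0.14 after 75th percentile scaling. Its scanner signals were 9769, 12981 and 9197 in the retina and 4786, 4294 and 3556 in the sclera. let-7f-5p was at 0.13 and miR-350-3p at 0.09. miR-1839-5p, at -0.02, and miR-30a-3p, at 0.06, moved to 0.98 and 0.94 with 75th percentile scaling.

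The contrast of the tissues was then set beside that in control eyes, which were measured on separate arrays. In control eyes 226 of the 439 miRNAs (51.5%) were called. The 439 were chosen by detection in myopic eyes, which lowers the control count. A miRNA detected only in control eyes was not tested, and one undetected in control eyes could not be called there. Of these, 207 were also called in myopic eyes, all in the same direction, which is 91.6% of the control calls and 79.3% of the myopic calls. A further 54 were called in myopic eyes alone and 19 in control eyes alone. These counts do not test a change, and the test of the difference between the contrasts called 1 miRNA (0.228%) at an adjusted p of 0.05, while 36 had an unadjusted p under 0.05. It was miR-145-5p, a miRNA of smooth muscle and pericytes. It was undetected in the 3 myopic retina pools, whereas the control retina pools gave 7.38, 8.01 and 11.6. In the sclera it gave 57.0, 51.0 and 36.5 in myopic eyes and 77.1, 82.6 and 50.8 in control eyes. The contrast was -7.90 in myopic eyes and -4.34 in control eyes, a difference of -3.56 (SE 0.52, adjusted p = 0.030), which rests on the value given to an undetected spot. Next in rank were miR-496-3p and miR-411-5p, at -0.84 and -0.92, neither of which passed (adjusted p = 0.38 for each).

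The list medians were also set side by side, as a description, over the members detected in myopic eyes. The sensory cluster had a median of 3.87 in myopic and 4.04 in control eyes, and all 4 members were called in both. The neuronal list had 4.79 and 5.09, and the mesenchymal list -9.40 and -7.90. The smooth muscle list was at -6.01 and -3.74 and the leukocyte list at -5.21 and -3.40. The Sfmbt2 family had 4.95 and 2.08, and 11 of its 20 myopic calls were also made in control eyes. No member of it passed the test of the difference, the smallest adjusted p being 0.38. In the control retina pools miR-466h-5p gave 244, 51.3 and 11.4. The 5p arm of miR-200a was detected in control retina pool 1 alone, at 41.4, as was that of miR-141, at 13.6.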

How the data were processed

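miRNAs were measured on Agilent mouse miRNA arrays, 12 in all, 6 of them from myopic eyes. The members and the miRNA lists were chosen with earlier results of these data known. Per the file headers, Feature Extraction 11.0.1.1 read the scans and placed the probes on mm9, whereas the methods name an older version. The deposited scanner intensity is the total gene signal of each miRNA, summed over its probes that were detected, and an undetected miRNA has 0.1. The authors also deposited log2 values made with Partek 6.6 after quantile normalization. These hold 448 entries, 437 of them mouse miRNAs, after absent features and outliers were removed, by a criterion not given in the sources used here, and served as a second reading (correlation with the log2 values used here 0.9994).

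The signals of 696 names were floored at 0.5, quantile normalized over the 12 arrays and taken to log2, on which an undetected miRNA is at -1. Because normalization goes by rank, a difference tells about rank within an array, not about the amount per tissue. limma 3.58.1 (R 4.3.3) was fitted with the 4 groups, leaving 8 residual degrees of freedom, and p-values were adjusted over the 439 miRNAs detected on at least 1 of the 6 arrays of myopic eyes. A call required an adjusted p under 0.05 and a fold change of 2, and for the difference between myopic and control eyes the adjusted p alone. Control spots (715 of 14635) were left out, and no spot was saturated. The number of arrays limits the precision. All arrays were scanned on the same day.

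Same-numbered pools of retina and sclera carry the same mouse identifier in the labels, which pairs them, and they lay on the same slide. The deviations of myopic retina and sclera pools correlated at 0.179, 0.0218 and 0.115 for pools 1, 2 and 3 over 246 miRNAs. Named miRNAs were the 10 per tissue with the largest called difference among those detected on all 6 arrays, the 6 per tissue with the largest bound among those detected on all arrays of 1 tissue only, the 5 closest to no difference, the 3 with the smallest p for the difference between myopic and control eyes, and the members of the lists. Alternatives changed the floor, the normalization, the background correction, the filter, the moderation, the array weights and the arrays included. The scripts were tested on simulated data. Figures were drawn with matplotlib 3.10.9.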

Additional observations from a re-analysis of the deposited data

Results flagged for a closer look

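The contrast of retina and sclera passed the test of the difference between myopic and control eyes for miR-145-5p alone among the 439 miRNAs (-3.56 on the log2 scale, SE 0.52, adjusted p = 0.030 in limma). With the replicate block, which pairs the pools by mouse identifier, the adjusted p was 0.066, and with 75th percentile scaling floored at the lowest detected signal the difference was -0.87 (adjusted p = 0.61), so the call was lost in both. It was undetected in 3 of 3 myopic retina pools and detected in 3 of 3 control retina pools at 7.38 to 11.6. With groups of 3, single pools were not tested as outliers.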

How the results depend on the processing

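The counts of calls were recomputed under 27 alternatives. With normexp background correction 101 miRNAs were called, 55 higher in the retina and 46 in the sclera. Restricted to the 267 miRNAs detected on all 6 arrays there were 143 calls, 47 of them higher in the retina. Without normalization 266 were higher in the retina and 42 in the sclera. Leaving out 1 array at a time gave 130 to 149 retinal and 113 to 123 scleral calls. With the replicate block, which pairs the pools, 144 and 118 were called. Of the 261 calls, 64 (40 retinal, 24 scleral) were made in every alternative that tested them. By the signal summed over all probes, 3 miRNAs in place of 1 were detected on as many arrays of both tissues without being on all.

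The difference between the contrasts of myopic and control eyes was the least stable count. In place of 1 call it gave 0 with 75th percentile scaling floored at the lowest detected signal, with normexp, with processed spot signals, with the deposited log2 values, with the 267 miRNAs alone and with the replicate block. It gave 2 without a filter and without moderation, and 258 with array weights, whose fit did not converge. Leaving out 1 array gave 0 to 124 calls, with 124 without control retina pool 1, 9 without myopic retina pool 3, 3 and 2 without control sclera pools 2 and 3, and 0 without control retina pool 2, control sclera pool 1, myopic retina pools 1 or 2 or myopic sclera pools 2 or 3. The adjusted p of miR-145-5p ranged from 2.86e-06 to 0.652 over 24 alternatives, and with normexp its value was 0.084 in the opposite direction. The cause was not tested.

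Over the named miRNAs, 1032 recomputed values kept direction and side of the threshold, 18 lost a call, 7 gained one and 3 turned direction. Without normalization miR-26a-5p stood at 1.33 and miR-1839-5p at 2.17. Signals near the lowest detected value (2.41 to 4.70 on the 6 arrays) limit what can be said of dim miRNAs.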

Other observations

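Other lists were described by their counts alone. Over all 439 miRNAs tested, 32.8% were called higher in the retina and 26.7% in the sclera, with a median of 0.42. Of 8 measured miRNAs of the miR-17-92 cluster, which is linked to proliferation, 2 were called higher in myopic retina and 6 were not called. The median was 0.70, and the retinal share was no higher than over all miRNAs. With 75th percentile scaling 5 were called and with normexp background correction 0. Of 7 of the miR-99/100 and miR-125 families, 3 were called higher in the sclera, among them miR-125b-5p at -1.87, and 1 higher in the retina. All 3 measured miRNAs of the miR-23a cluster on chromosome 8 were called higher in the sclera. miR-23a-3p gave 666, 898 and 674 in the retina and 4013, 3345 and 3013 in the sclera, with a difference of -3.68 (SE 0.16). Both miR-221-3p and miR-222-3p of the X chromosome were higher in the sclera, at -2.93 (SE 0.35) and -4.31 (SE 1.11). The cluster of miR-15a and miR-16-1 on chromosome 14 was higher in the retina for 3 of 3 measured miRNAs, and its miR-16-1-3p, found only there, had a bound of 34.7-fold.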
